A study of Rattus norvegicus with 12 samples.

Results

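A set of 9 gene identifiers was read in every dorsal root ganglion library and almost never in a trigeminal ganglion library. They are those of the 32662 identifiers that had at least 1 CPM (counts per 1000000 counts in genes of the library) in all 6 dorsal root ganglion (DRG) libraries and at most 3 counts summed over the 6 trigeminal ganglion (TG) libraries. The opposite pattern, by the same limits, was met by 0 identifiers. The genes were chosen by their counts in both tissues, so their difference between the tissues is given as a description and no p is given for it. Ratios between the tissues carry intervals for counting error only, which do not allow for this choice.

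The libraries came from 6 naive male Wistar Han rats aged 10 weeks, untreated animals of an outbred laboratory strain that were perfused with cold saline under anaesthesia. Each rat gave 1 TG and 1 DRG library of poly(A)-selected RNA, so the 6 animals are the replicates and both groups share strain, sex, age and handling. The labels do not say which spinal levels the DRG were taken from or whether ganglia were pooled within a rat. Libraries held 11876597 to 17184211 counts in genes. The deposited tables list Ensembl identifiers without symbols, and 0 of the 32662 identifiers, members included, were found in the rat gene table used here. The 9 genes are therefore given by identifier, their sequences and functions are not analysed here, and the tissue labels were not checked against cell type markers.

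Both ganglia hold the cell bodies of sensory neurons surrounded by satellite glia, with Schwann cells, vessels and connective tissue. TG serve the face and head and form from cranial neural crest and placodes, whereas DRG serve the trunk and limbs and form from trunk neural crest. Position along the body axis is recorded in developing tissue by the Hox genes, clustered genes for homeodomain transcription factors that are used in the hindbrain and trunk and not in the most anterior head, and some neurons keep this pattern in the adult. Whether any of the 9 genes is a Hox gene or another gene of axial position was not analysed here, because lists of such genes are written in symbols.

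Of the 9 genes, 5 had 0 counts in all 6 TG libraries. ENSRNOG00000028619 was at 9.54 CPM in the DRG library of rat R105, the lowest, had a median of 10.98 CPM and reached 13.9 CPM in that of rat R103 (mean 11.3 ± 1.51 CPM, SD, n = 6). ENSRNOG00000007611 lay between 7.42 CPM in rat R103 and 9.31 CPM in rat R105, with a median of 8.50 CPM (mean 8.49 ± 0.63 CPM, SD, n = 6). The rats at the ends of the range were thus the same for both genes, in the opposite order. ENSRNOG00000007823 ranged from 3.26 CPM (rat R105) to 4.82 CPM (rat R102) around a median of 3.81 CPM, with a mean of 3.96 ± 0.66 CPM (SD, n = 6). ENSRNOG00000016598 ranged from 2.12 CPM (rat R101) to 3.22 CPM (rat R103) around a median of 2.72 CPM, with a mean of 2.68 ± 0.48 CPM (SD, n = 6). ENSRNOG00000007585, with the lowest share of reads among the 9, ranged from 1.69 CPM (rat R104) to 2.86 CPM (rat R101) around a median of 1.94 CPM, with a mean of 2.13 ± 0.48 CPM (SD, n = 6). Since gene lengths are not known here, CPM values give each gene's share of the reads and do not rank the genes by transcripts.

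**Figure D1:**
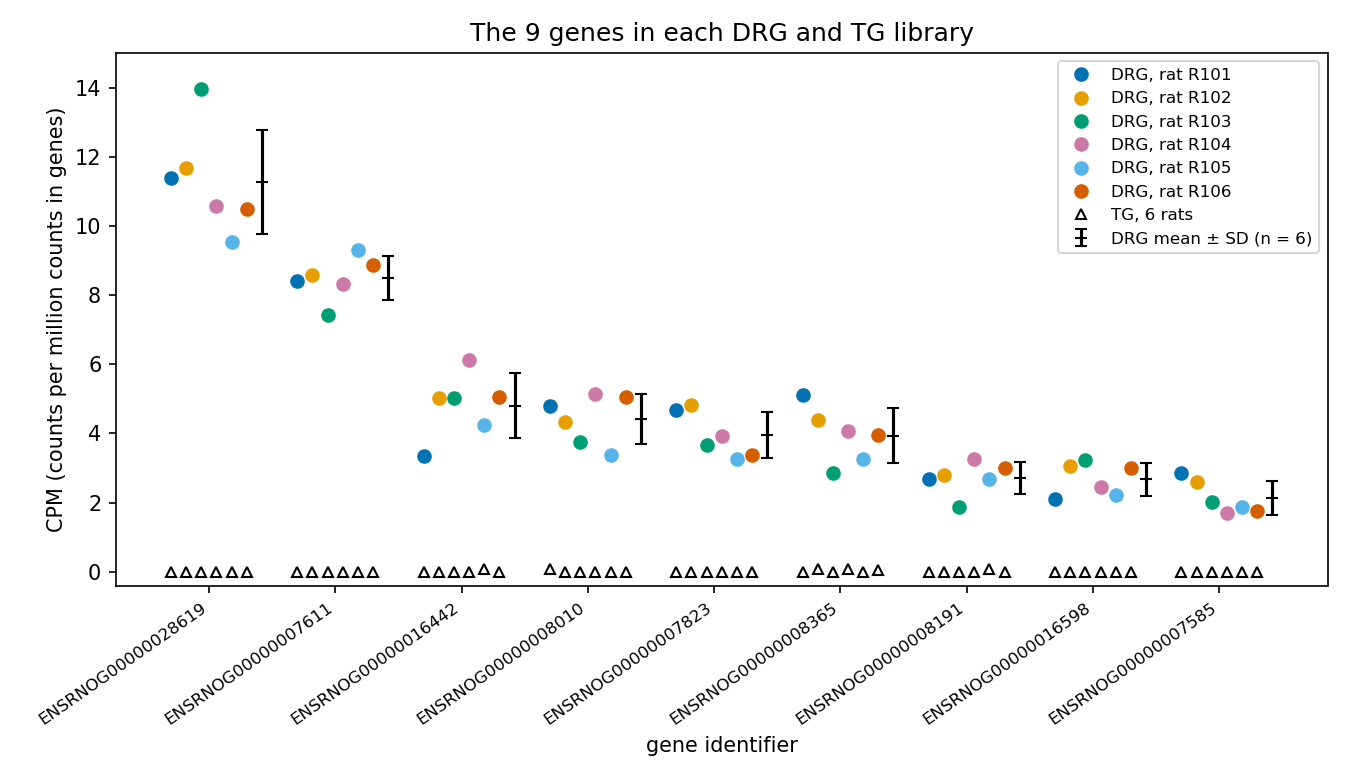
CPM (vertical axis, linear) of each of the 9 genes (horizontal axis) in the 6 DRG libraries (filled circles, 1 colour per rat) and the 6 TG libraries (open triangles), with the DRG mean ± SD (n = 6) as black bars. DRG values lie between 1.69 and 13.9 CPM, and all TG values lie at or just above 0.

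The other 4 genes had 1 to 3 counts over the TG libraries. ENSRNOG00000016442 was at 3.36 CPM (rat R101) to 6.13 CPM (rat R104) in DRG, with a median of 5.03 CPM (mean 4.81 ± 0.93 CPM, SD, n = 6), and had 1 count in TG, in rat R105. ENSRNOG00000008010 was at 3.38 CPM (rat R105) to 5.13 CPM (rat R104) in DRG, with a median of 4.56 CPM (mean 4.41 ± 0.72 CPM, SD, n = 6), and had 1 count in TG, in rat R101. Neither read came from the animal with the highest DRG level of the gene, which was rat R104 for both. ENSRNOG00000008191 was at 1.87 CPM (rat R103) to 3.25 CPM (rat R104) in DRG, with a median of 2.74 CPM (mean 2.71 ± 0.47 CPM, SD, n = 6), and its 1 TG count was also in rat R105. ENSRNOG00000008365 was at 2.85 CPM (rat R103) to 5.11 CPM (rat R101) in DRG, with a median of 4.01 CPM (mean 3.94 ± 0.80 CPM, SD, n = 6). It was the only one of the 9 with a count in more than 1 TG library, having 1 count in each of rats R102, R104 and R106, and so it sat exactly at the limit of 3.

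Together the 9 genes had 4009 counts among the 90518139 of the DRG libraries and 6 among the 81388620 of the TG libraries. Of the 54 combinations of a gene and a TG library, 48 held 0 counts and 6 held 1 count, and the 6 counts were spread over 5 of the TG libraries. The summed level of the 9 genes in DRG was 44.4 ± 2.56 CPM (SD, n = 6), from 39.7 CPM in rat R105 to 47.3 CPM in rat R102. In TG the highest sum was 0.17 CPM, in rat R105, and the sum in rat R103 was 0. In bulk tissue, fewer cells that use a gene and less RNA of it per cell cannot be told apart.

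The depth sets how low the TG levels can be shown to be. A level that gives 3 counts over the 6 TG libraries corresponds to 0.037 CPM, the floor used here for the 5 genes without a TG read. The exact 95% interval for 0 counts reaches higher, to 0.045 CPM. The bounds that follow use the floor and would be smaller at that upper end. At its DRG level ENSRNOG00000028619 would have given 910 counts in the TG libraries, and ENSRNOG00000007585 would have given 174. With counts summed per tissue and TG set to the floor of 3 counts, ENSRNOG00000028619 was at least 303-fold lower in TG, ENSRNOG00000007611 at least 231-fold and ENSRNOG00000007823 at least 107-fold. ENSRNOG00000016598 was at least 71.6-fold and ENSRNOG00000007585 at least 57.8-fold lower. The sizes of these bounds follow the DRG counts of the genes and therefore do not order them by how far they are reduced in TG. For ENSRNOG00000008365 the ratio of DRG to TG was 107 (exact 95% interval 36.4 to 523), the narrowest interval among genes with TG counts. For ENSRNOG00000016442, ENSRNOG00000008010 and ENSRNOG00000008191, with 1 TG count each, the ratios were 389, 358 and 222, with lower bounds of 69.5, 63.9 and 39.5. The floors, too, cover counting error only. Neither the intervals nor the floors allow for the choice of the genes by low TG counts, which favours high ratios.

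Few genes read in DRG came near this pattern. Of the 13405 genes with at least 1 CPM in all 6 DRG libraries, the median gene had 2158 counts over the TG libraries, and 12031 genes had more than 300. Summed TG counts above 100 and up to 300 were found for 1207 genes and of 31 to 100 for 149 genes. Below that the genes became few, with 6 at 11 to 30 counts, 3 at 4 to 10 counts, 4 at 1 to 3 counts and 5 at 0 counts. Seen from the other side, among 13553 genes with at least 1 CPM in all 6 TG libraries, 228 had 31 to 100 counts in DRG, 22 had 11 to 30, 5 had 4 to 10 and 0 had 3 or fewer. The DRG libraries were deeper in sum than the TG libraries, and the limit of 3 took no account of that.

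**Figure D2:**
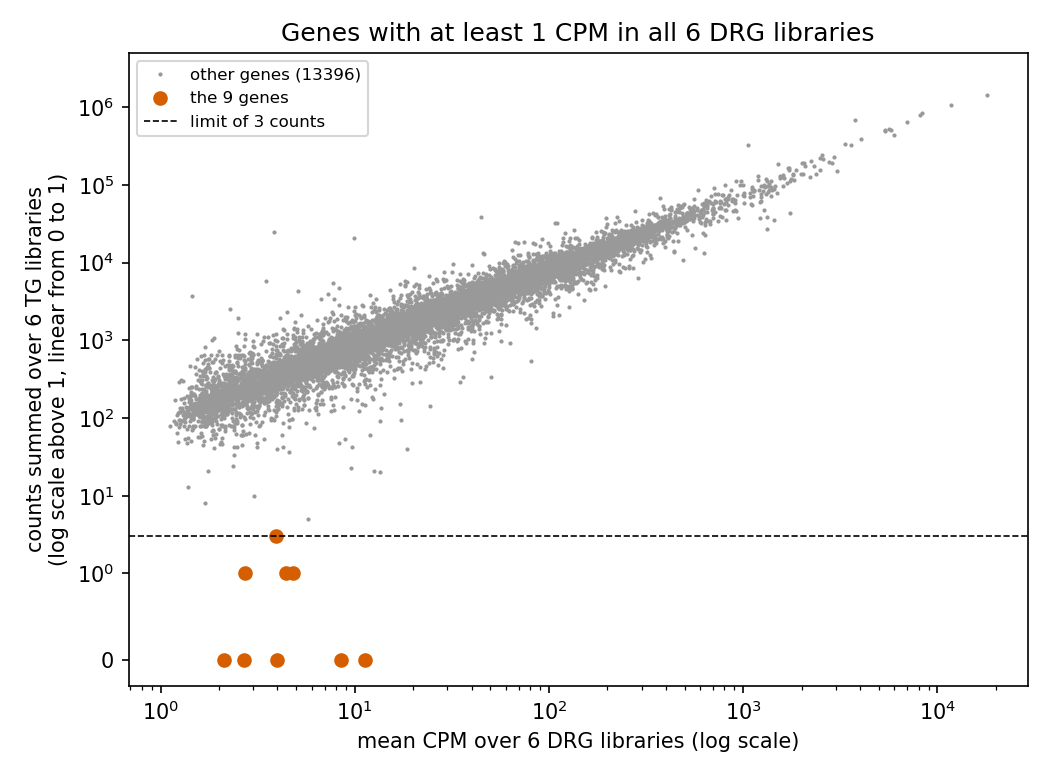
Mean DRG CPM (horizontal axis, log scale) against counts summed over the 6 TG libraries (vertical axis, log scale above 1 and linear below) for the 13405 genes with at least 1 CPM in all 6 DRG libraries. The 9 genes (orange) lie at or under the dashed limit of 3 counts, at DRG means of 2.13 to 11.3 CPM, below the band formed by most other genes (grey).

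Across all genes, edgeR's quasi-likelihood test called 57.3% of 14554 tested genes different between the tissues at an adjusted p under 0.05, and 27.4% lower in TG. That fit had no term for the rat, although each rat gave a library of both tissues. All 9 genes passed the filter on low counts, through their DRG libraries, and all 9 were among those lower in TG. This was fixed by how they were chosen and is no evidence about them. With TG sums under 3 counts raised to that floor, 14 genes with at least 1 CPM in every DRG library were at least 32-fold lower in TG, and these included the 9. In the opposite direction, among genes with at least 1 CPM in every TG library, the number was also 14. At a bound of 8-fold there were 32 genes lower in TG and 54 lower in DRG. At a bound of 64-fold there were 6 lower in DRG and 9 lower in TG, of which 8 were among the genes chosen here. The remaining gene lower in TG was ENSRNOG00000016613.

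ENSRNOG00000016613 was the gene nearest to the limit. It was at 4.67 to 6.60 CPM in DRG, with a median of 5.57 CPM (mean 5.73 ± 0.74 CPM, SD, n = 6), and had 5 counts in TG. All 5 were in the TG library of rat R101, and the other 5 TG libraries held 0. Without rat R101 it met the rule, which made 10 genes. With counts summed per tissue, its ratio of DRG to TG was 92.6, for which no interval was computed. In rat R101 alone the gene was at 4.67 CPM in DRG and 0.36 CPM in TG. The other 2 genes with 4 to 10 TG counts had them scattered over 5 TG libraries each. ENSRNOG00000020980 had 10 TG counts and 3.03 ± 1.01 CPM in DRG (SD, n = 6), and ENSRNOG00000057989 had 8 TG counts and 1.70 ± 0.64 CPM in DRG (SD, n = 6). No gene (0) with at most 3 TG counts failed the rule by only 1 or 2 DRG libraries under 1 CPM.

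The levels of the 9 genes were close between the DRG of the 6 animals. The highest DRG library was 1.25-fold (ENSRNOG00000007611) to 1.82-fold (ENSRNOG00000016442) above the lowest, and coefficients of variation (CV, the SD as a percentage of the mean) ran from 7.46% to 22.6%. For ENSRNOG00000007611 the CV of 7.46% was no larger than the 8.89% that counting alone gives. For ENSRNOG00000028619 it was 13.4% against 7.67% from counting, and for ENSRNOG00000016442 19.3% against 11.8%. The variance over DRG libraries, divided by that expected from counting at these depths, had a median of 1.68 over the 9 genes, from 0.69 to 2.94, and was above 1 for 8 of them. Over the 3410 genes in the same range of DRG mean CPM, with at least 1 CPM in all 6 DRG libraries, the median of this ratio was 1.49 (quartiles 0.85 and 2.57). The floor of 1 CPM in every library, which is part of the rule, keeps genes that are low in any DRG library out of both sets. It does not keep out genes with 1 very high library. ENSRNOG00000016837, described below, was at 1.05 CPM or more in every DRG library.

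Genes that entered under wider limits included some that were not even. These genes were chosen after their values were seen. ENSRNOG00000036870 had 384 counts in the DRG library of rat R104 and 0 in the other 11 libraries of both tissues. ENSRNOG00000030848 had 179 of its 209 DRG counts in rat R103 (85.6%), and ENSRNOG00000016837 had 835 of 1036 in the same rat (80.6%). None of these 3 is among the 9, whose highest library held 18.4% to 23.8% of a gene's DRG counts, where 6 equal libraries would hold 16.7% each. ENSRNOG00000016199 came closest to the 9 in pattern, with 0 TG counts and 0.75 to 1.68 CPM in DRG, and was kept out by DRG libraries under 1 CPM.

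**Figure D3:**
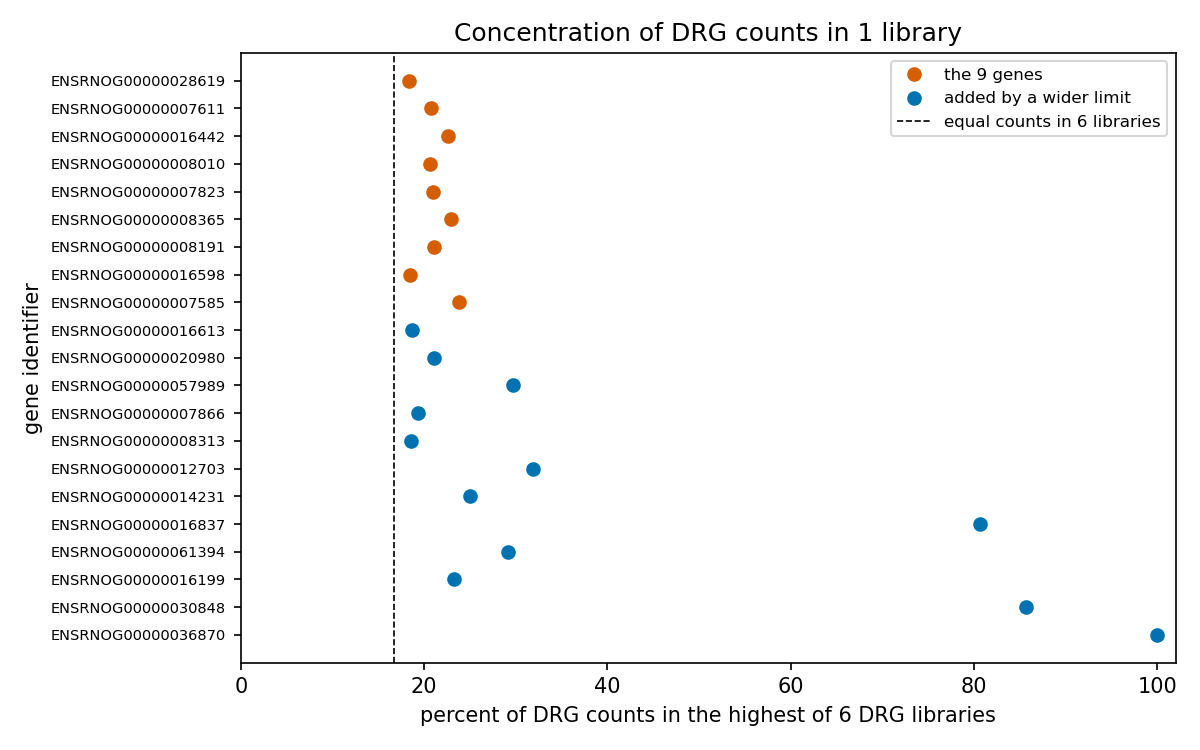
Percentage of a gene's DRG counts found in its highest DRG library (horizontal axis), with a dashed line at 16.7%. The 9 genes are orange and the 12 genes that wider limits add, the limit of 100 TG counts left out, are blue. The 9 genes lie between 18.4% and 23.8%. Of the added genes, 3 lie at 80.6%, 85.6% and 100%, and the rest lie between 18.6% and 31.9%.

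The DRG library of rat R103 stood apart in that 65 genes, each with at least 1 CPM there, exceeded every other DRG library by over 4-fold, against 0 to 2 genes in each of the others. None of the 9 was among these 65, as their highest-to-lowest ratios show. That library held the highest DRG value for 2 of the 9 genes (ENSRNOG00000028619 and ENSRNOG00000016598) and the lowest for 3 (ENSRNOG00000007611, ENSRNOG00000008365 and ENSRNOG00000008191). Of the summed counts of the 9 genes, ENSRNOG00000028619 made up 31.8% in rat R103 (exact 95% interval 28.1 to 35.8) and 23.2% to 25.1% in the others. The upper ends of the same interval in the others were 26.5% (rat R104) to 28.4% (rat R101). These intervals cover counting within 1 library only. Without that library the same 9 genes met the rule, and their mean DRG levels moved by at most 6.18%.

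No common rise and fall of the 9 genes between animals was seen in these libraries. Over the 6 DRG libraries, Pearson correlations of log2 CPM were positive for 18 of the 36 pairs of genes, with a median of 0.01. The highest was 0.83, for ENSRNOG00000007823 and ENSRNOG00000007585, which were both highest in rats R101 and R102. The lowest was -0.93, for ENSRNOG00000028619 and ENSRNOG00000007611. These are descriptions over 6 points that share library depth, and part of the spread of each gene is counting error, which for ENSRNOG00000007611 covers all of it. Such error weakens correlations, so the values do not show that shared variation is absent. By animal, 8 of the 9 genes were above their own mean in rat R102 and 2 of the 9 in rat R105, where the mean deviation was 0.14 and -0.17 on the log2 scale.

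**Figure D4:**
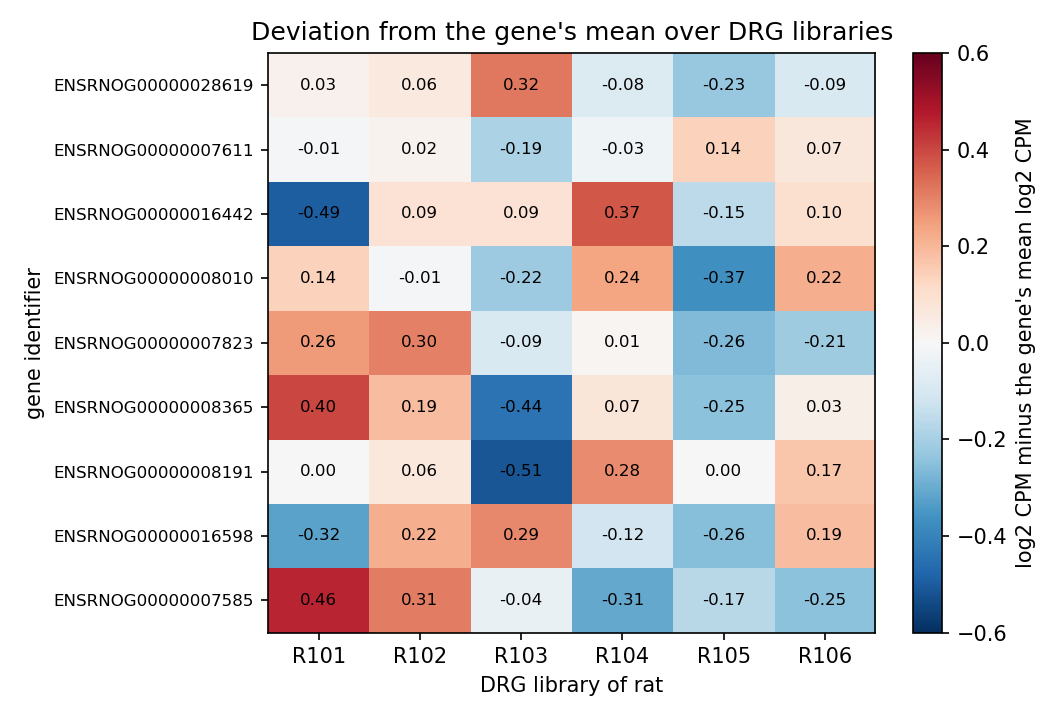
Deviation of each gene's log2 CPM in a DRG library from its mean over the 6 DRG libraries (colour and printed value), with genes in rows and rats in columns. Rat R102 is above the mean for 8 of the 9 genes and rat R105 for 2, and the deviations range from -0.51 to 0.46.

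The genes most like the 9 in their course over the DRG libraries were sought among the others. Among 11434 other genes with a mean of at least 5 CPM in DRG, the 5 with the highest Pearson correlation with the mean log2 deviation of the 9 genes reached 0.978 to 0.981 over 6 libraries. ENSRNOG00000019536, the most alike, was at 33.8 ± 4.19 CPM in DRG and 21.1 ± 1.78 CPM in TG (SD, n = 6 each). ENSRNOG00000057092 was at 7.69 ± 2.59 CPM in DRG and 9.61 ± 4.86 CPM in TG, and ENSRNOG00000008196 at 6.40 ± 0.81 and 6.60 ± 1.42 CPM. ENSRNOG00000014720 was at 30.7 ± 1.41 CPM in DRG and 24.5 ± 1.94 CPM in TG, and ENSRNOG00000016090 at 29.8 ± 2.65 and 43.8 ± 1.62 CPM. With this many genes and 6 libraries, correlations of this size are a description of these libraries only.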

How the data were processed

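Read counts per gene were deposited by the authors, 1 file for each library, made with STAR and HTSeq on the rat build Rnor_6.0, per the submitters' processing notes. Versions, annotation release and the use of strand are not stated in the labels, and reads of antisense or overlapping genes may not have been told apart. The 5 closing rows of reads given to no gene were left out. Of these rows, those for reads outside genes and for reads aligned to several places separate the tissues without overlap. Reads outside genes were 20.5% to 21.0% of a TG file and 15.7% to 16.9% of a DRG file. Reads aligned to several places, which near-identical gene copies lose, were 11.4% to 11.9% and 12.3% to 13.2%. The part of these rows in the results was not tested. Plain CPM (counts divided by the library's counts in genes) were computed in Python 3.11.15. edgeR 4.0.16 in R 4.3.3 (filterByExpr, TMM, robust quasi-likelihood test, Benjamini-Hochberg over 14554 genes) gave the background. Alternatives used DESeq2 1.42.0 and limma-voom 3.58.1. Both libraries of a number come from 1 rat, and their deviations from the tissue means correlated at 0.22 to 0.30 (-0.16 to 0.09 between rats), with log2(CPM + 0.5). Between pairs of libraries of a tissue, the variance relative to that expected from counting, averaged over genes, was 3.8 to 12.5.

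The members and lists were chosen with earlier results of these data known. Genes named by rule were all members and those with 4 to 10 TG counts or with 4 or 5 DRG libraries at 1 CPM. The 5 genes most correlated with the members' mean were also named by rule. Some genes that wider limits add were named outside it, after their values were seen. The rule also named axial position genes, and with cell type markers these lists were not analysed here, as no identifier had a symbol.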

Additional observations from a re-analysis of the deposited data

Results flagged for a closer look

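In 22 sets of 6 DRG libraries (the 9 genes, their sum and the 12 genes that wider limits add), a highest or lowest library far from the rest was looked for, by its gap to the next divided by the range. None (0) of the 10 sets of the 9 genes and their sum passed Dixon's 95% critical value for 6 samples. Of the added genes 3 did. The usual rate of about 1 in 20 sets does not apply, since the sets were chosen by their levels. The minimum of 1 CPM keeps genes that are low in any DRG library out of the 9. ENSRNOG00000036870 and ENSRNOG00000030848 came in through a mean raised by 1 library. The gap was 1.0 of the range for ENSRNOG00000036870 (rat R104), 0.926 for ENSRNOG00000016837 and 0.923 for ENSRNOG00000030848 (both rat R103).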

How the results depend on the processing

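The number of genes that met the rule was 9 and stayed within 1.5 times in 16 of 19 alternatives, 4 of which were chosen after seeing the data. It became 5 with 0 TG counts allowed, and 18 and 167 with 30 and 100 allowed, by construction of the limits. Leaving out a rat gave 9 to 10 genes, with all 9 kept each time. A TG limit of 0.05 mean CPM, thinning to the shallowest library and TMM-scaled CPM kept the same 9. The opposite rule gave 0 genes, but 5, 27 and 255 with 10, 30 and 100 counts allowed, so that at 30 and 100 more genes met it than the rule for DRG. It gave 3 with a minimum of 0.5 CPM, 6 with a mean of at least 1 CPM, 1 with a limit of 0.05 mean CPM, and up to 2 without a rat. Member means moved by at most 7.75%. The 8341 called genes (3987 lower in TG) were 7702 to 7903 (3679 to 3836 lower) without a rat and 8834 (4248 lower) with the rat as a replicate block. The calls of the 9 genes themselves are fixed by their choice and are not counted here. No alternative was run for the axial position lists, which need symbols.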
